A study of Macaca mulatta with 12 samples.

Results

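The genes described here are 34 genes of blood vessel walls in the lateral geniculate nucleus, the thalamic station that passes signals from the retina to the visual cortex. They were taken by name, and every non-control probe set of the array that named exactly 1 of them was used. This gave 33 genes of 11963 named on the array, and 62 of its 22283 probe sets, and no probe set analysed here named the junction protein gene ESAM alone. The samples came from rhesus macaques, Macaca mulatta, in which vision through 1 eye had been deprived. Each of the 12 arrays held total RNA of 1 geniculate layer from 1 hemisphere, and all 12 samples came from deprived animals, with no undeprived animal among them. Layers 2, 3 and 5 of the ipsilateral geniculate and layers 1, 4 and 6 of the contralateral one were deprived (6 samples), and the remaining layers received the open eye (6 samples). Layers 1 and 2 are magnocellular, with large relay cells (4 samples), and layers 3 to 6 are parvocellular, with small ones (8 samples). Age, sex, length of deprivation, number of animals, and which samples shared an animal are not stated in the labels, so the spread is between layers and hemispheres, and where samples share an animal the p-values overstate what is known about animals.

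Brain capillaries are tubes of endothelial cells joined by tight junctions, wrapped by a basement membrane and by mural cells, which are pericytes on capillaries and smooth muscle cells on arterioles. Endothelial cells carry receptors for vascular endothelial growth factors and angiopoietins, which govern the growth and stability of vessels. Pericytes are drawn to the vessel through the PDGF-B receptor, and smooth muscle cells set the calibre of arterioles with actin and myosin. Capillary supply follows the metabolic demand of nervous tissue, and the geniculate layers are among the tissues whose demand depends on activity in the eye. In tissue samples such as these, fewer cells of a type and less RNA per cell cannot be told apart.

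The deposited values were scaled intensities with nearly equal trimmed means on all arrays. Array medians ranged from 411.5 to 666.5 and were higher ipsilaterally (586.2 ± 83.4, SD, n = 6) than contralaterally (467.7 ± 39.7, n = 6). The array of the deprived ipsilateral layer 2 was least like the rest (mean r of 0.868, and 0.897 or more for the other arrays). Its 3'/5' signal ratio for GAPDH, a measure that rises with RNA degradation, was 9.38, that of the deprived ipsilateral layer 5 was higher still, and the others lay between 2.21 and 5.65. The results below hold both arrays. The 3'/5' ratio for ACTB ran from 17.0 to 62.9, so its signal was far higher at the 3' end on all 12 arrays. With 12 arrays the precision of each value is limited.

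The first question was which of the genes gave a signal above the low end of the array. Of the 33 measured genes, 23 had at least 1 probe set whose mean log2 intensity reached the median over all probe sets, which corresponds to an intensity of 483.4, and only such probe sets (27 of the 62) were tested. The other 10 genes were VWF, ICAM2, KDR, TIE1, CAV2, TAGLN, MYL9, CNN1, MYH11 and CSPG4. The angiopoietin receptor gene TEK lay just inside this limit, with a geometric mean of 492.1, and ICAM2 (475.3) and TAGLN (460.7) lay just outside it. A floor was set at an intensity of 110.8, the 20th percentile of all values. TIE1, an orphan receptor of endothelial cells, was at or below that floor on 11 of 12 arrays, and the smooth muscle gene CNN1 on 9. The smooth muscle myosin gene MYH11 had 4 probe sets, 1 of which was at or below the floor on all 12 arrays. In all, 9 of the 62 probe sets were at or below the floor on 6 or more arrays. Contractile mural genes were the group most often below the limit for testing, with only ACTA2 of its 5 members tested.

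**Figure D1:**
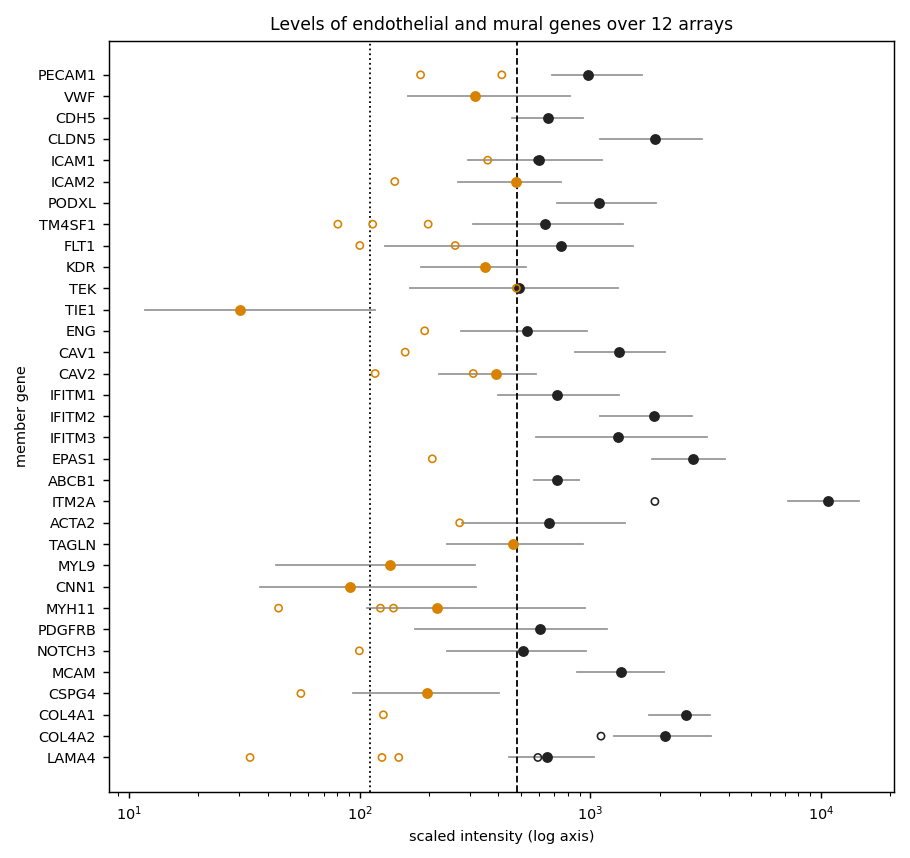
Intensity of each of the 33 measured genes on a log axis. Filled points are the geometric mean over 12 arrays of the probe set used for the gene, grey lines its lowest to highest array, and open points the gene's other probe sets. The dotted line is the floor (110.8) and the dashed line the limit for testing (483.4). Orange points, 10 filled ones among them, lie below the limit. Levels of different probe sets are not comparable with each other.

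The genes chosen as markers of the vessel wall were present to different degrees. PECAM1, an adhesion molecule at endothelial contacts, ranged from 679.7 to 1676 over the 12 arrays, and ACTA2, the smooth muscle actin, from 278.1 to 1416. VWF, the clotting factor stored in endothelial cells, ranged from 161.8 to 818.2 and was above the floor on all 12 arrays but below the limit for testing. Markers of relay tissue were measured as well, and all 11 measured neuronal markers, among them SNAP25, SYT1 and NEFL, passed the limit. So PECAM1 and ACTA2 gave a signal above the limit and VWF did not.

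Where a gene had several probe sets, these often disagreed. Over the 4 genes with 2 probe sets above the limit (ICAM1, ITM2A, COL4A2 and LAMA4), the correlation between the 2 over the 12 arrays had a median of 0.137, with a range from -0.0182 to 0.491. The second probe set of ACTA2 was highest in 2 parvocellular ipsilateral layers (658.5 and 585.6) and lowest in the deprived contralateral layer 6 (99.2), which is not the order of the first. For each gene the probe set of highest mean is given below, and other probe sets are given for some genes only.

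The second question was whether these genes differed between layers driven by the deprived eye and layers driven by the open eye. In a limma fit with cell class and hemisphere as further terms, 0 of the 27 probe sets passed an adjusted p of 0.05, where 0.063% of all 11105 probe sets did. The changes lay more often above 0, in 17 of the 23 genes tested (53.1% of all 7285 genes tested), with a median log2 difference of 0.158 against 0.0217 for all genes. Leaving out 1 array at a time gave medians from 0.0775 to 0.199. The 3 arrays whose removal lowered it most were the ipsilateral layers 2 (0.0775), 3 (0.0853) and 1 (0.101). After median centring it was 0.0101, with -0.115 for all genes. At an unadjusted p under 0.05, 2 genes were higher and 0 lower, ACTA2 and CAV1, where 6.09% and 6.3% of all genes were. Deprived and non-deprived values overlapped for all 27 probe sets (0.684% of all probe sets did not overlap).

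Among endothelial adhesion and junction genes, CLDN5, the main claudin of brain endothelial tight junctions, had intensities from 1238 to 3041 (median 2466) in deprived layers and from 1102 to 2492 (median 1825) in the others. The 2 groups overlapped over most of their range, and the log2 difference was 0.39 ± 0.24 (SE, adjusted p = 0.564). PECAM1 had 679.7 to 1398 (median 1035) against 699.8 to 1676 (median 945.6), and a difference of 0.05 ± 0.21 with a 95% interval from -0.40 to 0.50. The groups covered nearly the same range, and the sign of the difference turned to -0.05 with quantile normalization and to -0.09 with median centring. The other 2 PECAM1 probe sets, below the limit for testing, had -0.20 and 0.47 in a fit without the limit. VWF, also below it, had 161.8 to 499.5 (median 299.1) in deprived and 164.1 to 818.2 (median 302.7) in non-deprived layers, and was higher in the deprived sample in 3 of 6 layers. PODXL, a sialomucin of the luminal surface, had 719.8 to 1926 (median 1239) in deprived and 757.4 to 1206 (median 969.0) in non-deprived layers. Its 3 highest values were the 3 deprived ipsilateral layers, and the difference was 0.36 ± 0.21 (adjusted p = 0.533). Leaving out both arrays of high GAPDH ratio gave 0.12. CDH5, the cadherin of endothelial contacts, had a difference of 0.14 ± 0.23. TM4SF1 and ICAM1, a tetraspanin-like surface protein and a leukocyte adhesion molecule, had -0.06 ± 0.32 and -0.15 ± 0.30. Of this group 4 of the 6 tested genes had a change above 0 and none passed.

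The growth factor receptor genes gave wide intervals. TEK, the receptor of angiopoietins, had a difference of 0.48 ± 0.37, and its highest value was 1321 in the deprived ipsilateral layer 2, against 661.2 or less on the other 11 arrays. That layer is the array least like the rest, and without it the difference was 0.14 ± 0.32. FLT1, a receptor of vascular endothelial growth factors, ranged from 128.8 to 1528, with a difference of 0.17 ± 0.51. ENG, a co-receptor of the TGF-beta family, had -0.14 ± 0.35. The interval of FLT1 ran from -0.90 to 1.24, and a second FLT1 probe set, below the limit for testing, had 1.15 in a fit without the limit (unadjusted p = 0.00997, adjusted p = 0.417). KDR, the main signalling receptor of these growth factors, was not tested, and its intensities were 184.3 to 508.5 in deprived and 209.9 to 527.0 in non-deprived layers.

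CAV1, the coat protein of caveolae, was higher in the deprived sample in 6 of 6 layers by its brighter probe set, the only 1 of the 33 probe sets used of which this held. How often this order held over all probe sets was not counted, and the 2 samples of a layer came from opposite hemispheres. It had 1132 to 2104 (median 1583) in deprived layers and 855.5 to 1472 (median 1146) in non-deprived ones. The ratio was widest in layer 1 (2104 against 1114) and narrowest in layer 6 (1418 against 1375). The groups overlapped, since layer 2 was 1132 when deprived. The difference was 1.36-fold (log2 0.44 ± 0.19, 95% interval 0.03 to 0.85), unadjusted p = 0.0376 and adjusted p = 0.386. The second CAV1 probe set, at or below the floor on 5 arrays, went the other way, with -0.40 in a fit without the limit and the deprived sample higher in 1 layer and lower in 4. CAV2, the partner of CAV1, was below the limit for testing, with 342.9 to 573.1 against 220.3 to 580.3.

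The 3 interferon-induced transmembrane genes, whose products hinder the entry of viruses and which are abundant in endothelium, each had a change above 0 with deprivation. IFITM1 had 587.4 to 1333 (median 797.2) in deprived layers and 399.6 to 1062 (median 592.3) in non-deprived ones, and was higher in the deprived sample in 5 of 6 layers (0.41 ± 0.24, adjusted p = 0.531). IFITM2 had 0.16 ± 0.18 and IFITM3 0.29 ± 0.27. The genes of this family are near-identical copies, a probe set naming both IFITM1 and IFITM2 was left out, and the probe sets of IFITM2 and IFITM3 carry the suffix of sets that can bind several genes. The symbols IFITM2 and IFITM3 were also absent from the macaque gene tables used here, so what these human probe sets bound in macaque RNA is uncertain.

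Of the other endothelial genes, ABCB1, the drug efflux pump of the blood-brain barrier, had 568.1 to 893.1 (median 780.0) in deprived and 603.2 to 754.0 (median 672.0) in non-deprived layers, a difference of 0.18 ± 0.20. EPAS1, a hypoxia-inducible transcription factor, had -0.02 ± 0.17, with an interval from -0.39 to 0.35. ITM2A, a membrane protein found in endothelium, had 0.06 ± 0.17. Its second probe set was higher in the deprived sample in 5 of 6 layers (0.39 ± 0.18, unadjusted p = 0.0421, adjusted p = 0.396).

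Among mural genes, ACTA2 had 622.8 to 1416 (median 747.0) in deprived layers and 278.1 to 1004 (median 573.5) in non-deprived ones. The highest value was the deprived contralateral layer 1 (1416) and the lowest the non-deprived ipsilateral layer 4 (278.1), and the groups overlapped. The difference was 1.44-fold (log2 0.53 ± 0.23, 95% interval 0.03 to 1.03, unadjusted p = 0.0376, adjusted p = 0.386), with the deprived sample higher in 4 of 6 layers. The second ACTA2 probe set, below the limit for testing, had -0.38 in a fit without the limit. NOTCH3, the Notch receptor of mural cells, had 327.7 to 963.0 (median 681.7) in deprived and 240.0 to 902.6 (median 441.1) in non-deprived layers. Its difference was 0.50 ± 0.29 (adjusted p = 0.526), and that of MCAM, a mural and endothelial adhesion molecule, was 0.23 ± 0.21. PDGFRB, the receptor through which pericytes are recruited, had -0.13 ± 0.39, with 174.5 in the deprived layer 6 as its lowest value, although the deprived sample was the higher one in the other 5 layers. Below the limit for testing, CSPG4, which marks pericytes and also oligodendrocyte precursors, had 94.0 to 378.3 in deprived and 126.5 to 403.3 in non-deprived layers. The myosin light chain gene MYL9 had 43.6 to 212.3 and 69.5 to 315.7, with 4 arrays at or below the floor.

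The brighter probe sets of the basement membrane genes had small differences with deprivation. COL4A1 and COL4A2, the 2 chains of the common type IV collagen, had 0.03 ± 0.17 and -0.03 ± 0.19, with intervals from -0.32 to 0.39 and from -0.42 to 0.37. LAMA4, the laminin chain of vessel walls, had 0.05 ± 0.22. A second probe set of COL4A2 had -0.33 ± 0.27 and one of LAMA4 had 0.27 ± 0.23, and neither passed. Below the limit for testing, a second COL4A1 probe set had 0.33 (unadjusted p = 0.0486, adjusted p = 0.566) and a further one of LAMA4 had 0.40 (adjusted p = 0.576) in a fit without the limit.

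**Figure D2:**
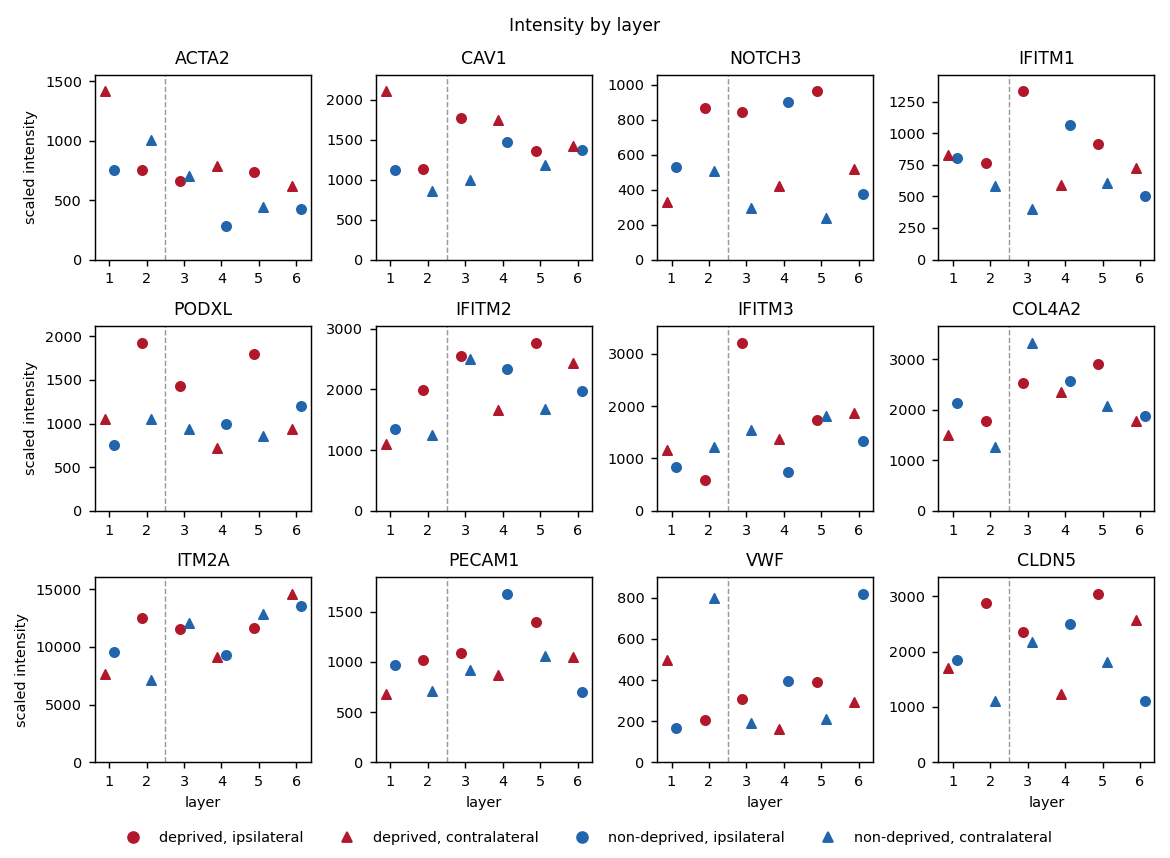
Scaled intensity (linear axis from 0) of 12 genes against layer number, with 1 point per array. Red is deprived, blue non-deprived, circles ipsilateral and triangles contralateral. The dashed line separates magnocellular layers 1 and 2 from parvocellular layers 3 to 6. CAV1, by its brighter probe set, is higher in the deprived sample of each layer, IFITM2 has its 3 lowest values in layers 1 and 2, and VWF has no common order of groups. The 2 samples of a layer come from opposite hemispheres.

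A score over the 33 measured genes, the mean of each gene's log2 intensity minus its own mean over the 12 arrays, described the layers as a whole. It was 0.0832 ± 0.147 (SD, n = 6) in deprived and -0.0832 ± 0.146 (n = 6) in non-deprived layers, so the difference of 0.166 was about as large as the spread within a group. It was 0.0754 with quantile normalization and 0.0401 with median centring. The deprived sample was higher in 5 of 6 layers, by 0.413 in layer 2, 0.407 in layer 5, 0.167 in layer 3, 0.164 in layer 6 and 0.0218 in layer 1, and lower in layer 4 (-0.175). The 2 samples of a layer came from opposite hemispheres, so each of these differences holds hemisphere as well as deprivation. The deprived sample was the ipsilateral one in layers 2, 3 and 5 and the contralateral one in layers 1, 4 and 6. The 3 deprived ipsilateral layers had the mean 0.195 ± 0.0680 and the 3 deprived contralateral ones -0.0290 ± 0.108. Among non-deprived layers the means were -0.0327 ± 0.0655 ipsilaterally and -0.134 ± 0.204 contralaterally. Within the ipsilateral hemisphere the deprived minus non-deprived difference was 0.228 and within the contralateral one 0.105. The 3 deprived ipsilateral layers also had high array medians (636.9 ± 34.7, n = 3), and the part of the array median in this pattern was not tested. Endothelial members alone had scores of 0.0731 and -0.0731, and mural members 0.131 and -0.131, in deprived and non-deprived layers.

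Markers of other cell types were examined in the same fit. Of 10 oligodendrocyte markers tested, 10 had a change above 0 with deprivation (median 0.310), as had 10 of 11 astrocyte markers (0.151), 6 of 7 microglia markers (0.136) and 4 of 5 markers of meningeal fibroblasts, which also line larger vessels (0.387). Of 11 neuronal markers 10 had a change below 0 (median -0.258). Of blood markers 2 were tested, and 2 had a change above 0 (median 0.237). None of these markers passed with deprivation, and 53.1% of all genes had a change above 0. The microglia score was between 0.424 and 0.451 in the 3 deprived ipsilateral layers and between -0.314 and 0.175 on the other 9 arrays, and the oligodendrocyte score ranged from -0.451 to 0.635. The blood score, over 3 measured genes, ranged from 0.0706 to 0.659 in the 3 deprived ipsilateral layers and from -0.694 to 0.319 on the others. The part of other cell types in the values of the vascular genes was not tested.

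**Figure D3:**
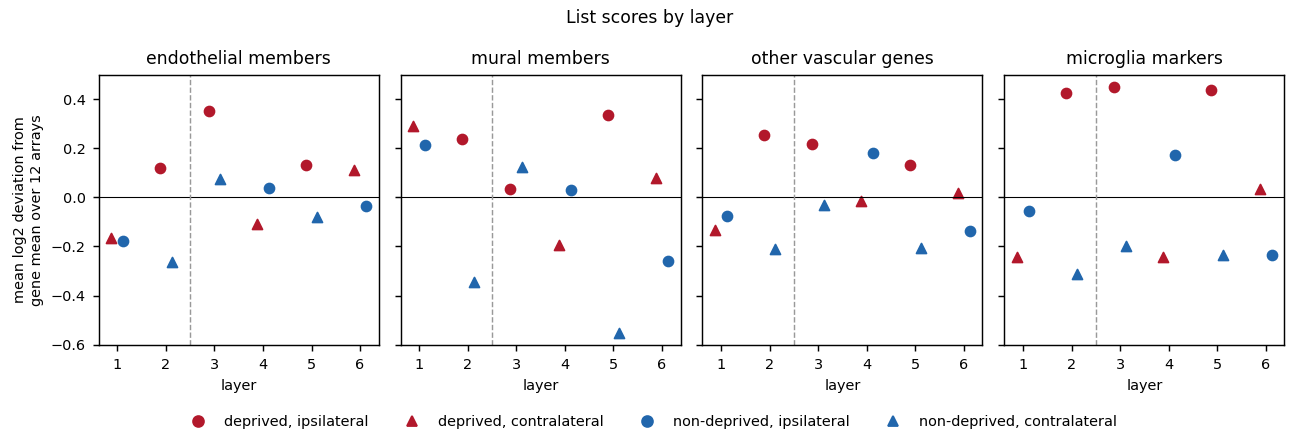
List scores (mean log2 deviation of each gene from its mean over 12 arrays) against layer number for 21 endothelial members, 9 mural members, other vascular genes and microglia markers, with 1 point per array. Colours and shapes are as in the plot of intensity by layer. The 3 deprived ipsilateral layers (red circles) lie above 0 in each panel and between 0.424 and 0.451 for microglia markers.

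The third question was whether magnocellular and parvocellular layers differed. Again 0 of the 27 probe sets passed in limma (0.72% of all probe sets did), and values of the 2 classes overlapped for all 27 (1.5% of all did not). Of 23 genes 8 had a change above 0 (42.4% of all genes), with a median of -0.183 against -0.0580 for all genes. It was -0.289 without both arrays of high GAPDH ratio, and from -0.275 (without the deprived layer 1) to -0.123 (without the non-deprived layer 4) when 1 array was left out. At an unadjusted p under 0.05, 1 gene was higher in magnocellular layers, ACTA2, where 5.72% of all genes were. By the same rule 4 were lower (8.94% of all genes), IFITM2, IFITM3, COL4A2 and ITM2A.

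IFITM2 had the smallest p of this comparison. Its magnocellular values were 1355 and 1105 in layer 1 and 1987 and 1244 in layer 2, and its parvocellular values ran from 1658 to 2769 (median 2382). The classes overlapped through the deprived layer 2 alone, at 1987, the array least like the rest. The difference was -0.67 ± 0.19 on the log2 scale (unadjusted p = 0.00244, adjusted p = 0.132). It passed with weights for each array (-0.77, adjusted p = 0.0304), in a fit where 350 of all 11105 probe sets did, against 80 in the main fit. With the ACTB 3'/5' ratio as a further term it was -0.42. IFITM3 had 841.2 and 1160 in layer 1 and 584.9 and 1213 in layer 2, and 751.0 to 3209 (median 1645) in parvocellular layers. Its difference was -0.80 ± 0.29 (adjusted p = 0.223), but 0.29 when the ACTB 3'/5' ratio was added as a covariate. IFITM1 had 0.05 ± 0.26, so the 3 members of the family did not share a direction.

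ACTA2 had 755.8 and 1416 in layer 1 and 753.8 and 1004 in layer 2, against 278.1 to 785.9 (median 642.5) in parvocellular layers. All 4 magnocellular values lay above 7 of the 8 parvocellular ones, and the difference was 1.71-fold (log2 0.77 ± 0.25, unadjusted p = 0.00641, adjusted p = 0.170). The ACTB term moved it to 1.34 (adjusted p = 0.796). The second ACTA2 probe set had -0.39 in a fit without the limit. Other contractile genes lay below the limit for testing, where TAGLN, an actin-binding protein, had 344.1 to 933.3 in magnocellular and 240.5 to 549.4 in parvocellular layers. MYH11 had 149.2 to 952.1 against 108.2 to 338.8, with 952.1 in the deprived layer 1, the array that also had the highest ACTA2 value. The ACTB 3'/5' ratio was 46.4 ± 15.1 (SD, n = 4) in magnocellular and 25.7 ± 8.78 (n = 8) in parvocellular layers, and the values with this ratio as a term are those given above.

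COL4A2 had 2140 and 1506 in layer 1 and 1774 and 1271 in layer 2, and 1773 to 3326 (median 2444) in parvocellular layers. Its difference was -0.54 ± 0.20 (unadjusted p = 0.0161, adjusted p = 0.239), and its second probe set had -0.63 ± 0.29. The partner chain COL4A1 had 0.18 ± 0.18, the opposite sign. ITM2A had 9583 and 7626 in layer 1 and 12509 and 7170 in layer 2, against 9160 to 14592 (median 11862) in parvocellular layers (-0.38 ± 0.18, adjusted p = 0.340), and its second probe set had -0.09 ± 0.19. PECAM1 had 972.8 and 679.7 in layer 1 and 1021 and 711.2 in layer 2, against 699.8 to 1676 (median 1056), a difference of -0.35 ± 0.22. A second PECAM1 probe set, below the limit for testing, had -1.16 (adjusted p = 0.331) and the remaining one 0.24. VWF, not tested, had 164.1 and 499.5 in layer 1 and 203.0 and 800.4 in layer 2, so that the contralateral sample was the higher one in both, and 161.8 to 818.2 (median 299.1) in parvocellular layers.

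As scores, endothelial members were -0.121 ± 0.167 (SD, n = 4) in magnocellular and 0.0604 ± 0.146 (n = 8) in parvocellular layers, and mural members 0.0987 ± 0.298 and -0.0493 ± 0.274. The classes overlapped in both scores. The mural score held all 9 measured mural genes, of which only 4 were tested. Those 4 had a median log2 difference of -0.101, with 2 above 0 and 2 below, so the mural genes had no common direction. Of 10 oligodendrocyte markers 3 had a change above 0, where 42.4% of all genes had, and 2 of those below 0 passed, MBP and MAG. Of 11 astrocyte markers 6 lay above 0 and 1 passed as lower, AGT. Of 11 neuronal markers 7 lay above 0 and 1 passed as higher, NEFM, and of 2 blood markers 0 lay above 0 (median -0.491). Of all probe sets 0.72% passed by cell class, and with the ACTB ratio as a covariate 4 of all 11105 probe sets did. The part of these cell types in the vascular values was not tested.

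**Figure D4:**
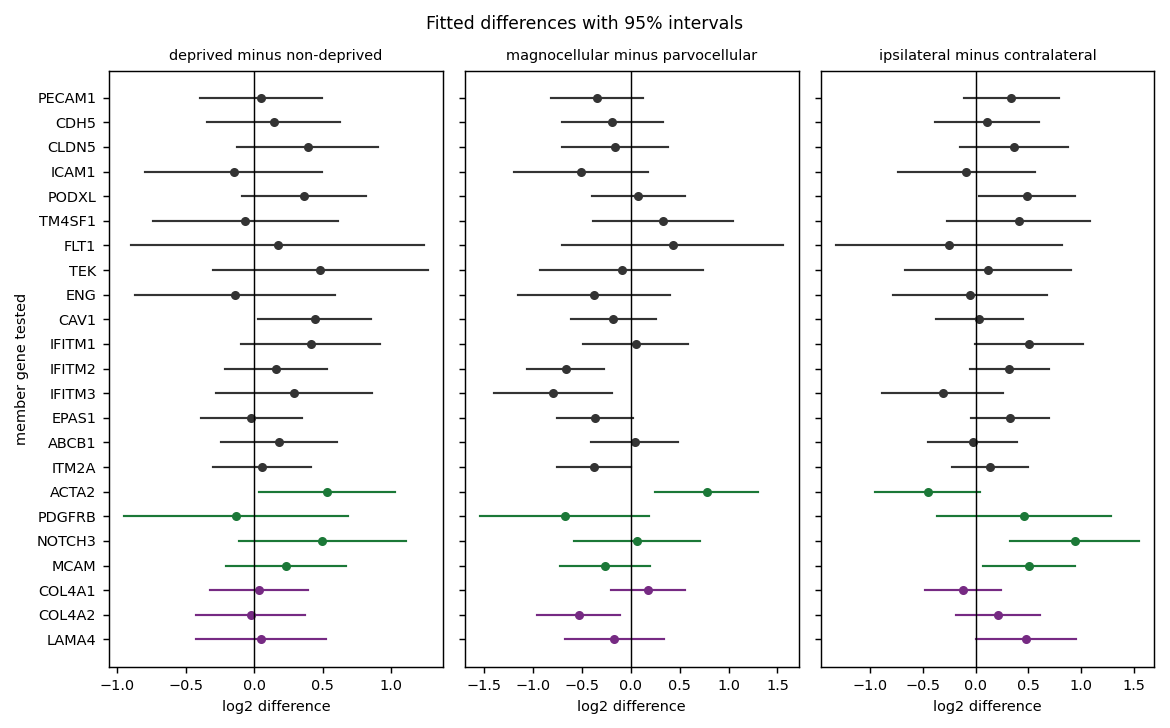
Fitted log2 differences with 95% intervals for the 23 genes tested, by deprivation, cell class and hemisphere. Endothelial genes are grey, mural genes green and basement membrane genes purple. Intervals that leave out 0, such as those of CAV1 and ACTA2 with deprivation and of IFITM2 and ACTA2 with cell class, are unadjusted, and 0 of the genes passed after adjustment.

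Whether the deprivation difference itself depended on cell class was tested with an interaction term. Of the 27 probe sets 0 passed in limma and 0 had an unadjusted p under 0.05, and 0% of all probe sets passed. The largest term was that of TEK (1.36 ± 0.73, adjusted p = 0.625), with 1321 in the deprived layer 2 as above, and it was 0.48 ± 0.77 without that array.

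Between the hemispheres 0 of 27 probe sets passed in limma (0.108% of all probe sets did) and values of the hemispheres overlapped for all 27 (1.29% of all did not). At an unadjusted p under 0.05, 4 genes were higher ipsilaterally (12.9% of all genes) and 0 lower (6.82% of all genes). NOTCH3 had 372.6 to 963.0 (median 858.1) ipsilaterally and 240.0 to 516.5 (median 373.2) contralaterally. Of the 6 ipsilateral values 5 lay above all contralateral ones, and the sixth, the non-deprived layer 6, lay at 372.6. The difference was 1.91-fold (log2 0.94 ± 0.29, unadjusted p = 0.00487, adjusted p = 0.128). MCAM had 1052 to 2093 (median 1849) against 877.7 to 1538 (median 1079), a difference of 0.51 ± 0.21 (adjusted p = 0.194). Without the non-deprived layer 6 both passed, NOTCH3 at 1.09 (adjusted p = 0.0360) and MCAM at 0.65 (adjusted p = 0.0492), in a fit where 851 of all probe sets did. The other 2 genes were PODXL (0.49 ± 0.21) and LAMA4 (0.48 ± 0.22). ACTA2 had -0.45 ± 0.23, while its second probe set had 1.22 in a fit without the limit (adjusted p = 0.170). Over the 23 genes 16 had a change above 0 (57.8% of all genes), with a median of 0.214 against 0.0640 for all genes. With 1 array left out the median ranged from 0.143 (without the deprived layer 6) to 0.335 (without the non-deprived layer 3), and it was 0.337 with the ACTB term. The median was -0.103 after median centring, which moved that of all genes to -0.253, so its sign depends on the scaling. It lay 0.151 above the median of all genes without and 0.150 with the centring, but 0.00295 above it when all 33 measured genes were fitted without the limit. Of 7 microglia markers 7 and of 2 blood markers 2 had a change above 0 between the hemispheres, where array medians differed too, and their part was not tested.

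Within the tissue, correlations among members ranged widely. Of the 253 pairs of the 23 genes tested, 65.2% had a Pearson r above 0 (median 0.139), where 51.3% of all pairs had. Over the 12 arrays the 120 pairs of the 16 endothelial genes tested had a median Pearson r of 0.181, and the 6 pairs of the 4 mural genes -0.0874, against 0.0144 for all pairs of the 7285 genes. These values are descriptions, since all genes share the same 12 arrays and their scaling. The closest pair was CLDN5 and MCAM (r = 0.880), followed by EPAS1 and COL4A2 (0.834) and by IFITM2 and MCAM (0.815). The lowest values were those of COL4A1, with r = -0.914 to PECAM1 and -0.616 to CLDN5. Its highest value, 3307 in the non-deprived ipsilateral layer 6, and its lowest, 1797 in the non-deprived ipsilateral layer 4, were on arrays where PECAM1 had 699.8 and 1676.

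A further list of 74 vascular genes, grouped as ligands, receptors, transcription factors, other endothelial, mural and basement membrane genes, gave 68 measured and 42 tested genes. With deprivation 0 passed in limma, 6 were higher and 0 lower at an unadjusted p under 0.05, and 28 of 42 lay above 0 (median 0.162). Of all genes 6.09% were higher and 6.3% lower at that p, and 53.1% lay above 0 (median 0.0217). The smallest p among them were those of SPARC, a collagen-binding protein of vessel walls and glia (0.54 ± 0.16, adjusted p = 0.190, its second probe set 0.56), and TJP1, a scaffold of tight junctions (0.52 ± 0.16, adjusted p = 0.208, its second probe set 0.23). Among ligands these were VEGFC (0.42) and the Notch ligand JAG1 (0.48), and among receptors EDNRB (0.42), an endothelin receptor that astrocytes also carry, and PLXND1 (0.36). The transcription factors ETS1 and HEY2 had 0.74 and 0.46, the tight junction gene JAM2 had 0.36, and the mural genes CALD1 and RGS5 had 0.61 and 0.39. The basement membrane gene AGRN had 0.36. None of these passed.

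With cell class 3 genes of this list passed in limma, 2 higher and 1 lower in magnocellular layers, and 3 of the 65 probe sets of the list did, against 0.72% of all probe sets. PDGFD, a ligand of the PDGF-B receptor, had 4335 and 4235 in layer 1 and 5208 and 5448 in layer 2, against 2117 to 3118 in parvocellular layers, a rise of 1.96-fold (log2 0.97 ± 0.16, adjusted p = 0.00895). VEGFC, a ligand of vascular and lymphatic endothelial receptors, had 552.5 and 1079 in layer 1 and 814.1 and 688.2 in layer 2, against 1188 to 2145, a fall to 0.491 times the parvocellular level (-1.02 ± 0.17, adjusted p = 0.00895). The receptor gene TGFBR2 rose by 2.02 ± 0.22 (adjusted p = 0.000287). For each of the 3 the classes did not overlap, as was so for 1.5% of all probe sets. The 3 were named because they passed this same comparison, so this is no further support. With the ACTB ratio as a covariate none of the 3 passed (adjusted p from 0.303 to 0.796), although the changes kept their sign (PDGFD 0.95, VEGFC -1.08, TGFBR2 1.54). In that fit 4 of all 11105 probe sets passed by cell class, against 80 in the main fit, so the loss was not particular to these genes. PDGFD lost its call when both arrays of high GAPDH ratio were left out (adjusted p = 0.0546), and when layer 2 was left out, deprived (0.0560) or not (0.0563). VEGFC lost its call without the non-deprived layer 2 (adjusted p = 0.0526). Calls by cell class over all probe sets fell to 26 without both arrays of high GAPDH ratio. They fell to 27 without the deprived layer 2 and to 19 without the non-deprived layer 2. With 1 array left out the changes ran from 0.88 to 1.07 for PDGFD and from -1.09 to -0.98 for VEGFC. PDGFRB, the receptor of PDGFD among the members, had -0.68 ± 0.41 (adjusted p = 0.474).

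Of the other genes of that list with the smallest p by cell class, ROBO4 (-0.57), CD34 (-0.55), TPM2 (-0.66) and ETS1 (-1.09) were negative and HEY1 (0.27), CALD1 (0.37) and AGRN (0.31) positive, and SELP (-0.41) and LAMC1 (-0.30) were negative. None of them passed.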

How the data were processed

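The deposited values were linear intensities, 1 for each of 22283 probe sets per sample, from macaque RNA on a human Affymetrix array. How the authors computed each intensity is not given in the sources used here. Trimmed means (2%) differed by under 1 unit between arrays, so the table was used as scaled by the authors. Human probes can bind macaque RNA less well, so each probe set was compared only with itself across arrays. Probe sets were named from the platform's gene table. No coordinates are printed for want of a named build, and 32 of the 34 symbols were in the macaque gene tables.

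Values under the 20th percentile (110.8) were raised to it and log2 was taken. Probe sets with a mean log2 value at or above the median over all were tested (11105, with 68 controls left out). Two-sided moderated tests came from limma 3.58.1 (lmFit, then eBayes with trend; R 4.3.3). The model held additive terms for deprivation, class and hemisphere, leaving 8 residual degrees of freedom. Adjusted p-values are Benjamini-Hochberg over all probe sets tested, with a threshold of 0.05. For counts of genes and scores, the probe set of highest mean was kept per gene, and 6 probe sets naming a member together with another gene were left out. Unless stated otherwise a difference is a log2 difference with its SE. The fit was also run on simulated data with independent normal noise on each array. Such data hold no sharing of animals and no added RNA degradation, so that run cannot speak to either. The members and the lists were chosen with earlier results of these data known. Values by group are given for PECAM1, VWF and ACTA2 and for the 5 members of smallest p with deprivation and with cell class; of the further vascular list, the genes that passed and the 2 of smallest p per role are named. Other genes named with values were chosen after their values were seen. Alternatives are given in the closing section.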

Additional observations from a re-analysis of the deposited data

Results flagged for a closer look

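Groups of 4 to 10 samples were checked for a sample far from the others, for 14 scores and genes in 56 groups, where chance alone marks about 1 in 20. The mural score was -0.346 in the non-deprived contralateral layer 2, against 0.212 for the nearest of the other 3 magnocellular samples. ACTA2 was 1416 in the deprived contralateral layer 1, against 785.9 for the next of the 6 deprived samples.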

How the results depend on the processing

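The counts of 0 members with deprivation and with its interaction with cell class stayed at 0 in all alternatives run. With cell class the count was 1 with array weights (IFITM2), in a fit where 350 of all 11105 probe sets passed. With hemisphere it ranged from 0 to 2 without single arrays, and 851 of all probe sets passed in the fit that gave 2. Deviations from the deprivation group means had correlations from -0.250 to -0.00159 between the samples of a layer. Those samples came from opposite hemispheres and hemisphere was left in the deviations, so this cannot show whether layer numbers pair the samples. With layer as a replicate block the count with deprivation was 0. The median member change stayed at 0.158, which was fixed in advance, since every layer holds a deprived and a non-deprived sample. The median member change with deprivation was 0.0101 after median centring, where that of all genes was -0.115, and that with hemisphere was -0.103. The score difference with deprivation ranged from 0.0401 to 0.228, and that between hemispheres was -0.0456 with quantile normalization and -0.130 with median centring. PECAM1 with deprivation had -0.0476 with quantile normalization, -0.0886 with median centring, -0.0576 with array weights, -0.0494 with the GAPDH ratio as a covariate, -0.0574 without the 2 arrays of highest ratio, and -0.127 to 0.169 without single arrays. IFITM3 with cell class had 0.292 with the ACTB ratio. ACTA2 and CAV1 kept their sign with deprivation in 25 of 25 alternatives (0.374 to 0.672 and 0.275 to 0.663), with adjusted p from 0.0893 for CAV1 to 0.786. Some of these alternatives could not move the estimate, since deprivation was balanced over cell class, hemisphere and layer. They were the fits without the hemisphere or class term, with layer as a block, and without the trend or the filter. Dropping the floor could not move it either, as neither probe set had a value at the floor. Low signal limits the 10 members below the limit for testing.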
